A study of Oryza sativa Indica Group with 5 samples.

Results

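Of 48718 rice gene loci measured in developing seed, 341 were detected in both waxy accessions and in none of the 3 high-amylose accessions. They were chosen by the well-above-background flag of the array software: each locus was represented by its brightest probe, and a member carried the flag on both waxy arrays and on no high-amylose array. A locus that carries the flag on an array is called detected on it here. The waxy group is 2 rice accessions of haplotype 4 (GQ00205 and GQ00212), and the high-amylose group is 3 accessions of haplotype 8 (GQ00086, GQ00125 and GQ00170), all Oryza sativa of the Indica group. Each accession gave 1 RNA sample from developing seed at 16 days after anthesis, taken from untreated glasshouse plants (29 °C in the day, 21 °C at night) and hybridised to 1 single-colour Agilent array. The labels do not say what the haplotypes span or how many plants were pooled. No accession was measured more than once, so the spread within a group is a spread between accessions and between arrays. Because the flags on these same 5 arrays chose the members, their differences between the groups are given as descriptions without a test.

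Waxy rice lacks most or all amylose, the mostly unbranched part of starch, while high-amylose rice is rich in it. Amylose is made in the endosperm, the starch store of the grain, by the granule-bound starch synthase GBSSI, which the Waxy gene (LOC_Os06g04200) encodes. On a single-colour array the brightness of a probe follows the abundance of the transcripts that bind it, and the flag tells only whether a spot stands clear of its background. A transcript can therefore pass the flag on one array and miss it on another while its level differs little, above all where the arrays differ in brightness.

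The arrays did differ in brightness. The 75th percentile of the processed signal was 203 and 212 on waxy replicates 1 and 2, against 183, 108 and 88.8 on high-amylose replicates 1, 2 and 3. Detected spots made up 58.7% and 58.5% on the waxy arrays, against 57.9%, 50.2% and 50.4% on the high-amylose arrays, and no spot was saturated. The waxy pair shared 1 scan date, the 2 dimmer high-amylose arrays another and high-amylose replicate 1 a further one, so scan date and grain type cannot be told apart. All 13 starchy endosperm markers and all 3 embryo and aleurone markers listed were detected on every array, so the seed label was met by its defining markers. Of 6 markers of green outer layers, 4 were detected on all arrays. The signals of the 6, relative to the 75th percentile, were added up, and the log2 of that sum was taken. It was 0.29 and 0.78 on the waxy arrays and 0.30, 2.41 and 3.80 on the high-amylose arrays. Such a figure mostly follows the brightest markers. Neither of the 2 pericarp pigment genes was detected on all arrays. The log2 of their summed signals was -3.30 and -3.73 on the waxy arrays and 0.42, -0.01 and 1.73 on the high-amylose arrays. No marker of any of these tissues was a member, and the part of such tissue differences in the members' values was not tested. Waxy was detected on all 5 arrays and is no member: its log2 signal on the same scale was 8.21 and 3.70 on the waxy arrays and 7.96, 8.46 and 8.32 on the high-amylose arrays.

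The members were faint in waxy seed. Seed RNA mixes several tissues, so fewer cells of a kind and less RNA per cell cannot be told apart for any of them. Their median processed signal was 25.8 and 24.3 on waxy replicates 1 and 2, where the median locus detected on both waxy arrays had 195 and 204. Only 2 members lay above the median of the 26722 loci detected on both waxy arrays, and the median member stood at the 3.88th percentile of them. On the high-amylose arrays the members' median signal was 12.3, 7.83 and 7.38, and the highest signal of any member there was 21.0, 17.6 and 15.8. The members made up 1.28% of the loci detected on both waxy arrays and 0.700% of all loci. The mirror image, detection on all 3 high-amylose arrays and neither waxy array, held for 38 of the 48718 loci. That rule asks for detection on 3 arrays, among them the 2 dimmer ones, and for absence on the 2 brightest. The counts of 341 and 38 are therefore not set against each other.

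To set the arrays side by side, each log2 signal was taken relative to the 75th percentile of its own array, which is called the scaled log2 signal here. The median member then stood at -2.98 and -3.13 on the waxy arrays and at -3.89, -3.79 and -3.59 on the high-amylose arrays. The median difference, waxy minus high-amylose, was 0.96 over the members, against -0.03 over all 28945 loci tested. The difference was above 0 at 324 members and below 0 at 17. Leaving out 1 array at a time kept the members' median between 0.82 and 1.06, while normexp background correction with quantile scaling gave 0.20. A member passes the filter for testing through its waxy arrays alone, so a positive difference follows in large part from the choice. The difference ran from -0.34 to 6.37, with quartiles of 0.43 and 1.66.

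Both waxy arrays lay above all 3 high-amylose arrays at 201 of the 341 members (58.9%), a pattern seen at 5.03% of all tested loci. At the other 140 members the groups overlapped on the scaled log2 scale although the flags separated them. The gap between the lowest waxy and the highest high-amylose value was at least 1 at 57 members and at least 2 at 14. In the limma fit over all loci, 5 members had an adjusted p under 0.05, where 0.0276% of the 28945 loci were called in either direction and 0.0173% higher in waxy seed. Without high-amylose replicate 1, 2 or 3 the members called numbered 3, 4 and 2, where 9, 5 and 3 of the 28945 loci were called. No member was called with a term for the 2 dimmer arrays or under normexp, where limma called 0 loci in all and 1162 and 645 had an unadjusted p under 0.05. With quantile scaling 3 members were called, where 3 of the 28945 loci were called, and with scan date as a random block 4, where 6 were. Since the rule used that contrast, nothing is read from these counts.

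**Figure D1:**
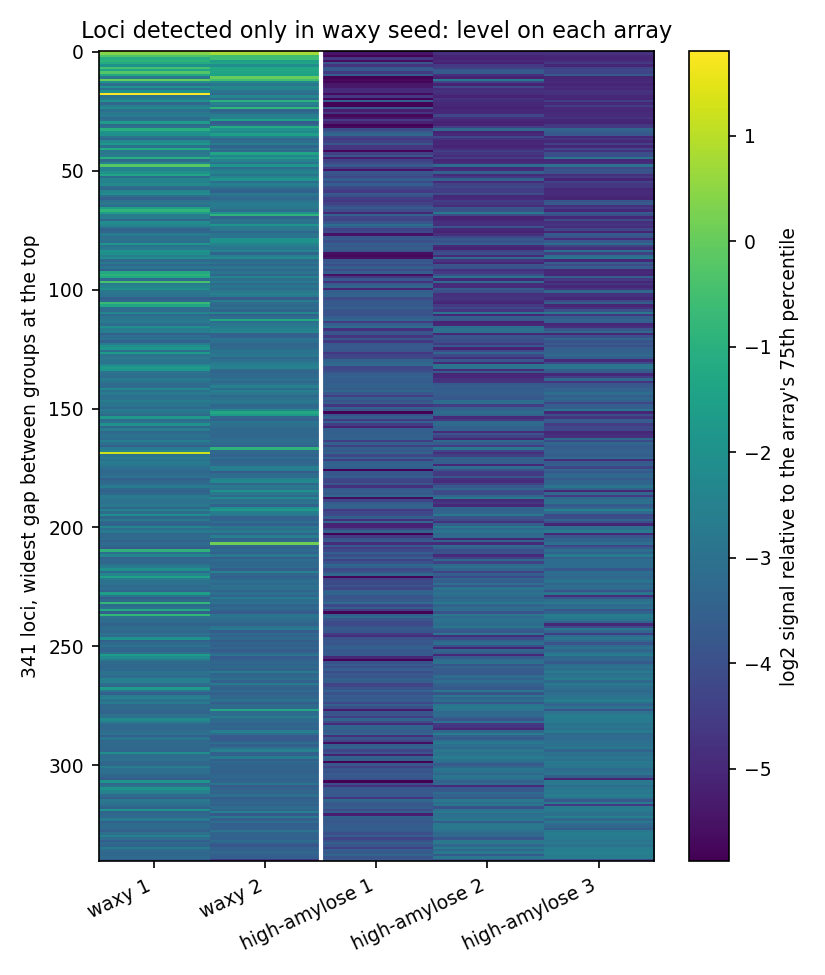
Scaled log2 signal (colour) of the 341 loci detected only in waxy seed (rows, ordered by the gap between the lowest waxy and the highest high-amylose value) on the 5 arrays (columns). The bright rows at the top are the few members with wide gaps, and lower down the columns of the 2 groups hardly differ, as at the 140 members with overlapping groups.

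The level needed for detection differed between the high-amylose arrays. On high-amylose replicates 2 and 3 the brightest undetected spot lay at a scaled log2 signal of -2.34 and -2.33, against -3.13 on high-amylose replicate 1. Moved to the brightness of high-amylose replicate 2, the waxy mean of 212 members would lie below every detected spot there, and at the brightness of replicate 3 this held for 232 members. At the brightness of replicate 1 it held for 5 members. On all 3 high-amylose arrays the waxy level of 59 members would have stood above every undetected spot. For most members the waxy level itself thus lay under the range detected on the dimmer arrays.

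High-amylose replicate 1, which was nearly as bright as the waxy arrays, is the high-amylose array closest to them in brightness. On that array, 1574 loci were detected together with both waxy arrays and on neither dimmer array. Such loci miss the rule through high-amylose replicate 1 alone. The rule gave 1915 loci without that array, 423 without replicate 2, 540 without replicate 3 and 850 without both dimmer arrays. It gave 1054 without waxy replicate 1 and 1306 without waxy replicate 2. Set against replicate 1 only, the members' median difference was 1.08, and both waxy arrays lay above it at 335 of 341 members, a pattern seen at 39.3% of all tested loci. The rule required the flag to be absent on that array, so nothing is read from this count.

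**Figure D2:**
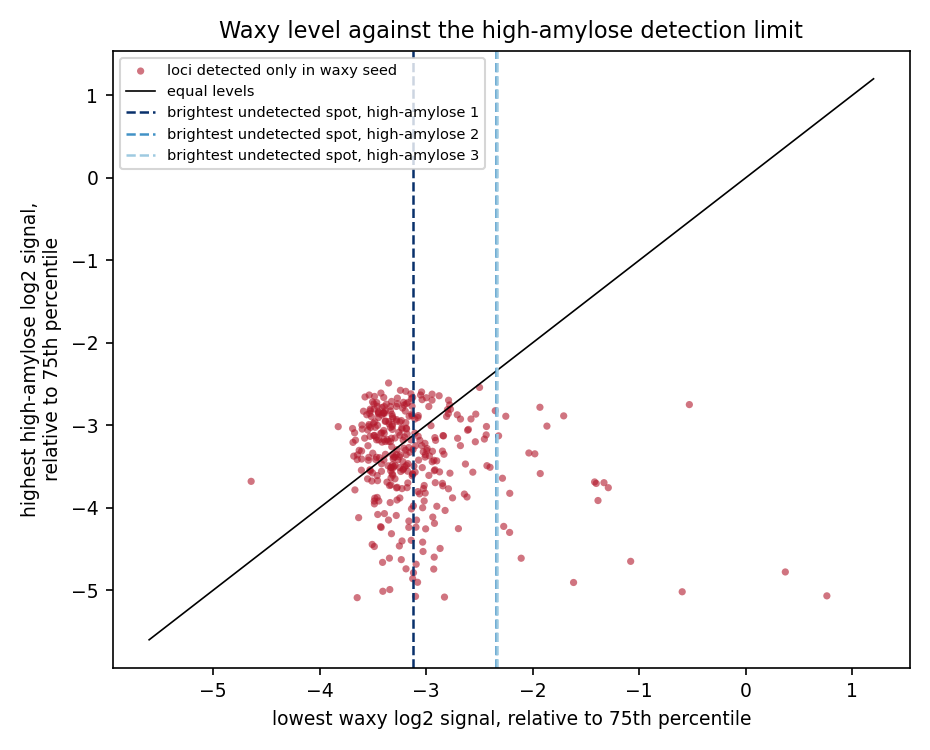
Each point is a member, with its lowest waxy value on the horizontal axis and its highest high-amylose value on the vertical axis, both as scaled log2 signal. Dashed lines mark the brightest undetected spot of each high-amylose array (-3.13, -2.34 and -2.33), and most points lie left of the lines of the 2 dimmer arrays, whose lines coincide.

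For a member that no high-amylose array detected, a fold is only a lower limit. It is given as the waxy mean over the high-amylose mean after raising each high-amylose value to the lowest detected spot of its array where it lay below. Over the members the median of this limit was 1.04-fold. It was under 1 at 146 members, for which no fold is given, at least 2-fold at 32 and at least 4-fold at 10. Signals that the software did not find positive and significant are replaced by a floor value. On the high-amylose arrays 218 members had no such value, 83 were at the floor on 1 array, 33 on 2 and 7 on all 3. Where a value is at the floor, the measured difference has no exact size.

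The widest gap belonged to LOC_Os12g38550 on chromosome 12. Its processed signal was 488 and 359 on waxy replicates 1 and 2, against 3.12, 3.10 and 2.65 on the high-amylose arrays. All 3 high-amylose values were at the floor, and the locus was at least 16.8-fold higher in waxy seed, with a scaled log2 difference of 6.37 as measured. It was also the member with the highest mean level in waxy seed. LOC_Os11g37774 on chromosome 11 came next, with signals of 263 and 352 on the waxy arrays and 4.25, 3.77 and 3.24 on the high-amylose arrays. It too was at the floor on all high-amylose arrays and was at least 12.2-fold higher in waxy seed.

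LOC_Os12g38560, the direct neighbour of LOC_Os12g38550 on the array, had signals of 165 and 140 in waxy seed and 3.25, 3.21 and 2.74 in high-amylose seed. It was at least 6.09-fold higher. LOC_Os12g16490, also on chromosome 12, had 96.0 and 141 in waxy seed, against 7.31, 3.12 and 2.63 in high-amylose seed, at least a 4.66-fold excess. LOC_Os11g05614 on chromosome 11 had 108 and 69.1 in waxy seed, against 3.77, 3.51 and 2.96. These 5 loci with the widest gaps all lay on chromosomes 11 and 12. No waxy and high-amylose values came near each other at any of them.

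The remaining 7 of the 12 widest gaps lay on chromosomes 1, 3, 6, 9 and 10. LOC_Os09g33750 had signals of 88.8 and 81.0 in waxy seed and 12.2, 3.03 and 3.67 in high-amylose seed. LOC_Os10g14920 had 146 and 86.6 in waxy seed, against 13.6, 5.22 and 4.28, at least a 4.51-fold excess. LOC_Os03g02500 had 80.7 and 88.2 in waxy seed, against 14.2, 7.93 and 4.81. At these 3 loci the high-amylose signal was highest on replicate 1 and stayed under the lowest detected spot of that array, 15.5. LOC_Os01g56710 had 172 and 80.0 in waxy seed, against 7.68, 8.29 and 4.40, at least a 4.71-fold excess by this probe. Its other probe was detected on neither waxy array and on high-amylose replicate 3, with a difference of -0.56. The scaled values of the waxy arrays differed by at most 1.16 at all but 1 of the 12. The exception was LOC_Os01g28660, with 28.6 and 213 in waxy seed and floor values of 3.22, 3.12 and 2.62 in high-amylose seed.

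LOC_Os06g04840 and LOC_Os06g05460 on chromosome 6 complete the list. LOC_Os06g04840 had signals of 52.6 and 49.1 in waxy seed, against 7.10, 4.42 and 2.64 in high-amylose seed, and was at least 2.04-fold higher. LOC_Os06g05460 had 88.4 and 79.2 in waxy seed, against 14.2, 3.75 and 6.51, at least a 3.36-fold excess. Neither group of values overlapped the other at these loci.

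**Figure D3:**
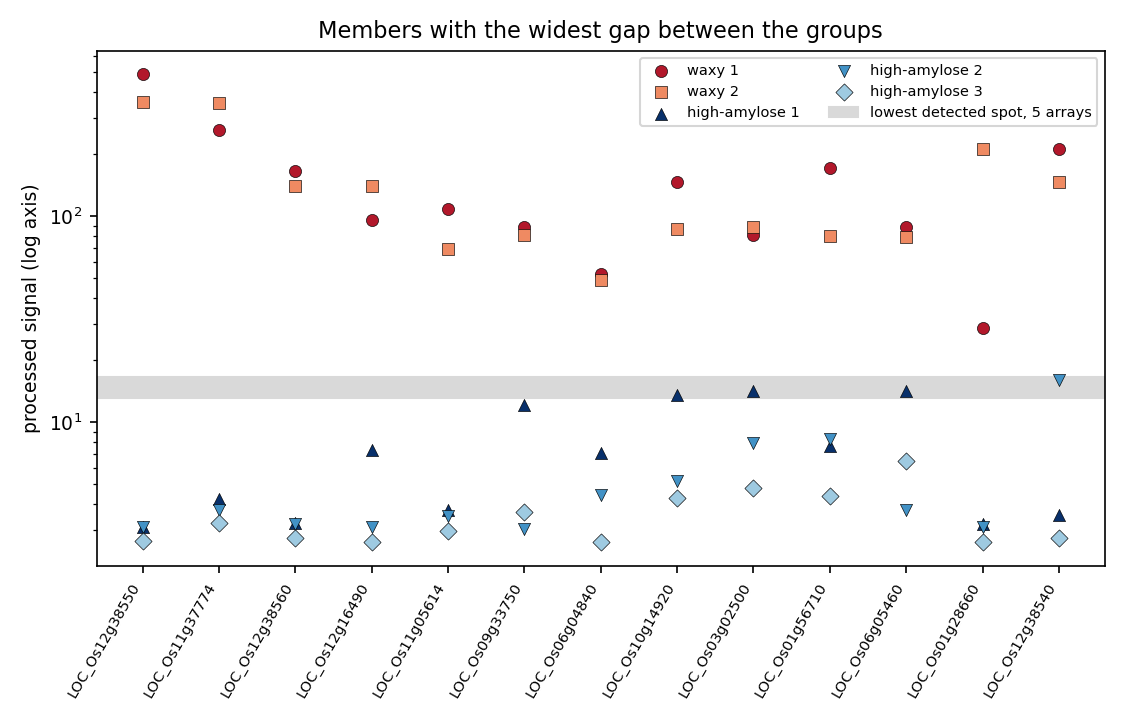
Processed signal on a log axis for the 12 members with the widest gap and for LOC_Os12g38540, the remaining member of the run of 3, with 1 point per array. The grey band spans the lowest detected spot of the 5 arrays, and both waxy points of every locus lie above it, while the highest high-amylose point, LOC_Os12g38540 on replicate 2 at 16.1, lies inside it.

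Members that follow each other directly in the order of array loci form runs. There were 6 runs holding 13 members, 5 runs of 2 and 1 run of 3, while 328 members had no member next to them. Runs thus held 3.81% of the members, and 2.78% to 10.3% of the loci under other forms of the rule. How many runs the density of members alone would give was not worked out, so nothing is read from the count. The run of 3 was LOC_Os12g38540, LOC_Os12g38550 and LOC_Os12g38560 on chromosome 12. LOC_Os12g38540 had signals of 212 and 147 on the waxy arrays, against 3.55, 16.1 and 2.75 on the high-amylose arrays, and was at least 6.92-fold higher in waxy seed. Its value on high-amylose replicate 2 lay just above that array's lowest detected spot of 15.1 without carrying the flag. The 3 loci were among the 4 members with the highest mean scaled signal in waxy seed, and LOC_Os11g37774 was the other.

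The loci around this run were of several kinds. LOC_Os12g38520, the array locus before the run, and LOC_Os12g38570 and LOC_Os12g38580, the 2 after it, were detected on no array. LOC_Os12g38590, the next array locus, was a member again, with signals of 42.0 and 35.9 in waxy seed and 15.5, 5.45 and 3.51 in high-amylose seed. LOC_Os12g38610 beyond it was detected on all arrays at scaled log2 signals of 5.17 and 5.58 in waxy seed and 5.30, 5.85 and 5.10 in high-amylose seed. Within 10 array loci on each side of the run, 10 of the 19 loci that are not members were detected on all 5 arrays, and their differences, waxy minus high-amylose, ran from -0.76 to 0.63. LOC_Os12g38460 and LOC_Os12g38660, each detected on 4 arrays, differed by 1.61 and -2.61. LOC_Os12g38540 had floor values on 2 high-amylose arrays, and LOC_Os12g38550 and LOC_Os12g38560 had them on all 3. The differences of these 3 loci are thus known only as the lower limits of 6.92-, 16.8- and 6.09-fold. They are not ranked against the differences of the loci around the run.

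A second cluster lay on chromosome 3. LOC_Os03g09930 had signals of 31.2 and 24.4 in waxy seed, against 3.31, 3.92 and 2.67 in high-amylose seed, and its neighbour LOC_Os03g09940 had 52.8 and 40.1, against 12.7, 9.50 and 5.69. The groups did not overlap at either locus, and the lower limits were 1.11-fold and 1.85-fold. LOC_Os03g09850, 7 array loci before them, was a member as well, with 21.8 and 65.9 in waxy seed and 11.996, 9.96 and 5.41 in high-amylose seed. Between it and the pair stood 6 loci, all detected on every array.

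The other 4 runs were pairs. On chromosome 3, LOC_Os03g55880 had signals of 66.5 and 55.5 in waxy seed and 5.49, 15.7 and 6.82 in high-amylose seed, and LOC_Os03g55890 beside it had 20.5 and 42.9, against 9.48, 3.45 and 8.39. On chromosome 11, LOC_Os11g12710 had 35.2 and 36.5 in waxy seed and 3.51, 3.50 and 9.67 in high-amylose seed, next to LOC_Os11g12680 with 29.1 and 20.1, against 6.22, 6.27 and 8.29. The groups did not overlap at these 4 members, though the gap was only 0.03 at LOC_Os11g12680 and 0.09 at LOC_Os03g55890. In the pair LOC_Os06g40520 and LOC_Os06g40530 and in the pair LOC_Os01g55700 and LOC_Os01g55710 they overlapped at the second locus. In all, both waxy arrays lay above all 3 high-amylose arrays at 11 of the 13 members in runs. This pattern was seen at 58.9% of all members and at 5.03% of all tested loci. The rule chose these loci by the same arrays, so nothing is read from this count.

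**Figure D4:**
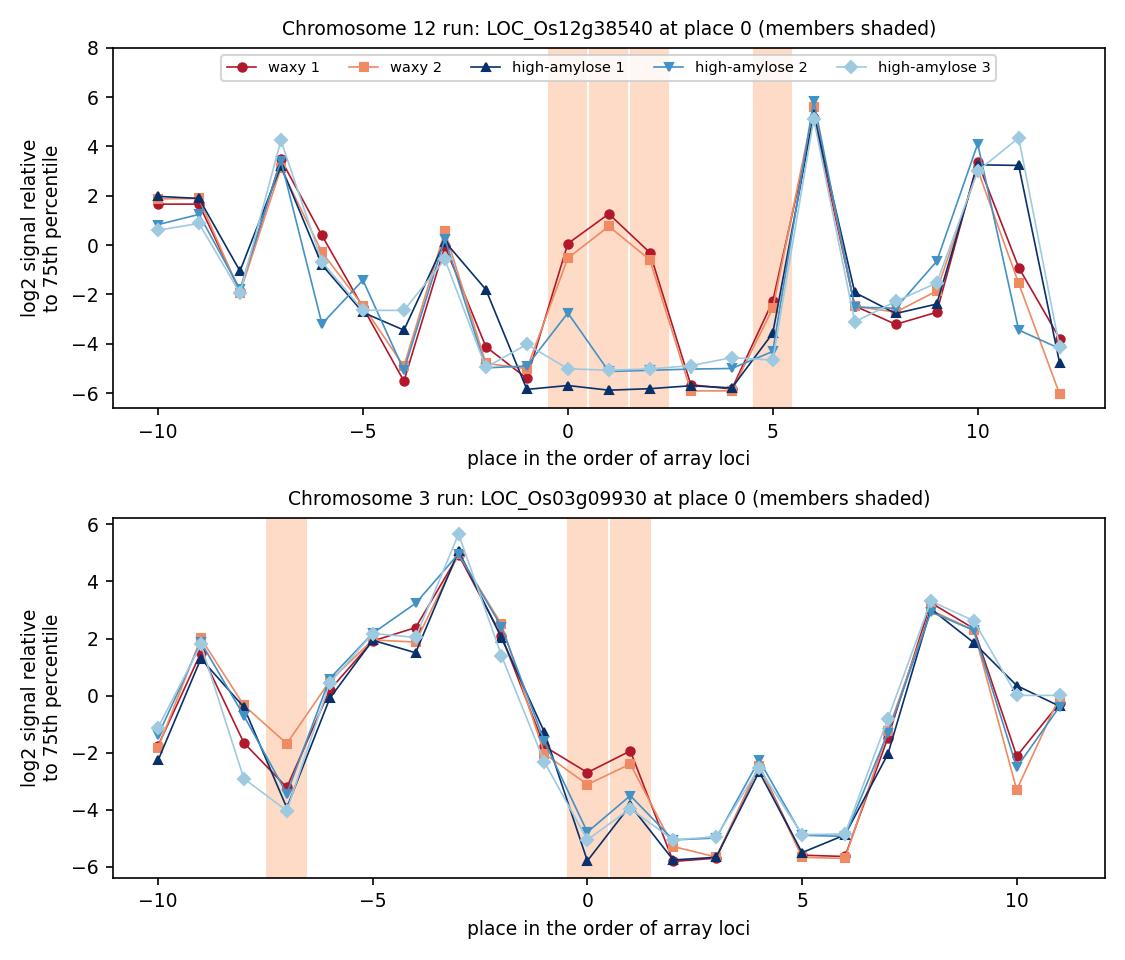
Scaled log2 signal on the 5 arrays along the order of array loci around the chromosome 12 run (upper panel) and the chromosome 3 pair (lower panel), with members shaded. The waxy and high-amylose lines part at the shaded loci and run close together at most loci between them, and the scaled floor is lower on brighter arrays.

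The 2 waxy accessions were not alike at every member. They differed by under 1 on the log2 scale at 284 members, with a median difference in size of 0.38, against 0.31 over all loci detected on both waxy arrays. They differed by over 2 at 16 members, of which 13 were higher on waxy replicate 1 and 3 on waxy replicate 2. LOC_Os08g29760 on chromosome 8 differed most, with signals of 710 on waxy replicate 1 and 24.2 on waxy replicate 2, against 3.61, 3.63 and 3.06 on the high-amylose arrays. LOC_Os04g12370 on chromosome 4 had 488 on waxy replicate 1 and 22.0 on waxy replicate 2, against 17.2, 3.76 and 8.01. Both were chosen for the text after their values were seen. At these loci a high level was seen in 1 waxy accession, and the other waxy array was only just detected.

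Most members rest on a single probe: 286 had 1 probe on the array and 55 had 2 or 3. Of the 58 further probes of those 55 loci, 7 met the rule by themselves, 29 were detected on no array, 11 were detected on at least 1 high-amylose array and 11 on 1 waxy array only. The difference was above 0 for 32 of the 58. At 6 loci every probe met the rule: LOC_Os01g31494, LOC_Os02g57460, LOC_Os02g58100, LOC_Os03g09850, LOC_Os03g09940 and LOC_Os10g14920. Of these, 2 belong to the chromosome 3 cluster, and LOC_Os03g09930 beside them had 2 of its 3 probes meeting the rule. Of the 12 members with the widest gap, LOC_Os10g14920 and LOC_Os01g56710 have 2 probes, and they went different ways. At LOC_Os10g14920 the other probe stood at scaled log2 signals of -2.37 and -2.72 in waxy seed and -5.50, -4.88 and -4.83 in high-amylose seed. At LOC_Os01g56710 the other probe stood at -4.82 and -3.53 in waxy seed and -4.39, -3.99 and -2.47 in high-amylose seed. The 3 loci of the chromosome 12 run have 1 probe each.

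Each probe name starts with JUNQ, JMULT or JXHYB, taken here as its class. The files do not say what these letters stand for, and whether a probe of each class binds transcripts of its own locus alone is not known here. JUNQ probes represented 256 members, JMULT probes 61 and JXHYB probes 24. JXHYB thus made up 7.04% of the members, against 1.61% of the loci detected on both waxy arrays and 4.56% of all loci on the array. Of the JXHYB loci detected on both waxy arrays, 5.59% were members, against 1.20% for JUNQ and 1.25% for JMULT. The median difference was 1.79 for members of class JXHYB, 0.90 for JUNQ and 1.16 for JMULT. Among the 12 widest gaps, LOC_Os09g33750, LOC_Os03g02500 and LOC_Os06g05460 were of class JXHYB. LOC_Os12g16490, LOC_Os06g04840 and LOC_Os10g14920 were of class JMULT, and the other 6 were of class JUNQ. No class is defined, so the doubt about what a probe binds touches the values of all 12.

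Every chromosome held members, from 15 on chromosome 5 to 40 each on chromosomes 1 and 3. Chromosomes 11 and 12 together held 56 members, 16.4% of them, against 11.7% of the loci detected on both waxy arrays and 14.2% of all loci on the array. Per 100 loci detected on both waxy arrays there were 1.79 members on chromosome 11 and 1.80 on chromosome 12, against 0.675 on chromosome 5. Of the 57 members with a gap of at least 1, 9 lay on chromosome 12 and 3 on chromosome 11, while chromosomes 3 and 8 held 7 each. Of the 14 with a gap of at least 2, 6 lay on chromosomes 11 and 12, and 3 of those 6 are the neighbours of the chromosome 12 run.

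**Figure D5:**
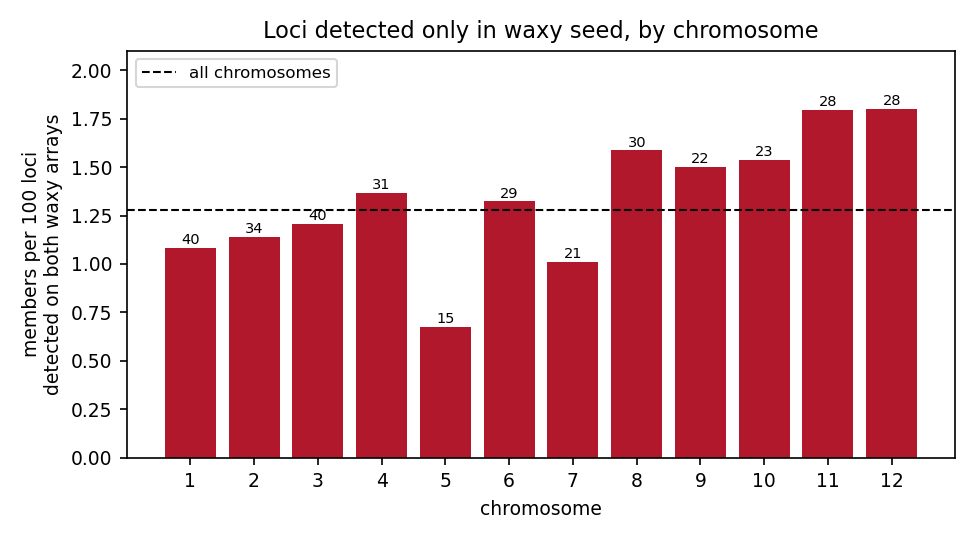
Members per 100 loci detected on both waxy arrays, by chromosome (bars), with the number of members above each bar and the value over all chromosomes, 1.28, as a dashed line. Chromosomes 11 and 12 stand at 1.79 and 1.80 and chromosome 5 at 0.675.

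None of the members was among the known genes looked for. Of 34 loci of genes for flowering time, grain and plant form, and disease resistance, 33 are on the array. Of these, 16 were detected on both waxy arrays and 13 on all 5, and 0 were members. Since members made up 1.28% of all loci detected on both waxy arrays, nothing is read from 0 among these 16. The array files and the gene table used here pair no member with a gene name or function, so the members are given by locus name alone.

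At the edge of the rule, signals were set against the lowest detected spot of each array. It was 16.5 and 15.8 on waxy replicates 1 and 2. The members lowest by this measure, called just inside here, were LOC_Os01g55710, LOC_Os01g01200 and LOC_Os02g53580. LOC_Os02g53580 had signals of 16.6 and 18.2 in waxy seed, against 8.25, 9.27 and 6.90 in high-amylose seed. LOC_Os01g01200, the mean of 6 spots, had 19.3 and 14.9, against 12.8, 10.9 and 10.98. LOC_Os01g55710, the mean of 2 spots, had 15.6 and 8.48, against 14.3, 7.41 and 5.45. The scaled values of the groups overlapped at all 3. The means of LOC_Os01g55710 on both waxy arrays and of LOC_Os01g01200 on waxy replicate 2 lay below the lowest detected spot. Both are members because a share of at least 0.5 of their spots carried the flag on each waxy array. Just outside were LOC_Os06g45690, LOC_Os09g10190 and LOC_Os11g43960, each detected on 1 high-amylose array. Each has 2 spots, and its mean lay below the lowest detected spot of the high-amylose array that detected it. Nothing is read from the loci at this edge about the other members. LOC_Os09g10190 had signals of 22.9 and 20.1 in waxy seed, against 15.7, 11.3 and 12.1, and LOC_Os11g43960 had 22.1 and 24.2, against 13.6, 8.71 and 13.1. LOC_Os06g45690 had 11.7 and 14.7 in waxy seed, against 14.3, 5.37 and 3.48 in high-amylose seed.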

How the data were processed

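The deposited intensity values are scanner output of Agilent Feature Extraction 11.5.1.1, per the file headers. Processed intensity has the background of its own array subtracted and is not normalized between arrays. The software's 0 or 1 flags were deposited with it. The authors also deposited a table of log2 values, and limma is the tool given, with no version, in the submitters' processing notes. Differences between its arrays followed quantile-scaled log2 processed intensity (r of 0.9997 to 0.9998, slopes of 0.989 to 0.992 over 10 pairs of arrays). The medians of its columns stood at -0.0227 and 0.00414 for waxy replicates 1 and 2 and -0.0172, 0.0395 and 0.0270 for high-amylose replicates 1, 2 and 3, and the baseline of each probe is unknown.

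Control spots were left out and spots of a probe averaged without outlier spots, 23 to 67 per array. A probe with several spots, as at 5 members, counted as detected if a share of at least 0.5 of them were. Each locus took the probe with the highest mean log2 signal. Log2 intensity was scaled by the array's 75th percentile. For the background, 28945 loci from 35634 probes detected on at least 2 arrays entered a limma fit (limma 3.58.1, R 4.3.3; Benjamini-Hochberg adjusted p under 0.05, two-sided), after a test on simulated data. Python 3.11.15, pandas 2.3.3 and matplotlib 3.10.9 were used. Precision is limited by the number of arrays: the fit's standard errors had a median of 0.463 on the log2 scale. Replicate numbers follow the order of deposit and pair no arrays.

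Named loci are the 12 members with the widest gap, members of runs of 3, members among the listed known genes, the 3 members just inside and 3 loci just outside the rule, and the 3 highest in waxy seed. The members, lists and tests were chosen with earlier results of these data known. Loci of the shorter runs, around both clusters and beside marker genes were chosen after their values were seen. So were those with several probes and those that differ between the waxy arrays. Gene classes from descriptions were not counted, since the tables used here hold none for these loci. Marker and known-gene names come from general knowledge of rice loci. Positions are the chromosome and order of the locus names, and no sequences or coordinates were used.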

Additional observations from a re-analysis of the deposited data

Results flagged for a closer look

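Beside the named loci the array holds 139 gene models with other names, of which 58 were detected on both waxy arrays. Of these, 1 was detected on no high-amylose array and lies outside the rule for locus names. This model, ChrSy.fgenesh.mRNA.26, had processed signals of 20.8 and 16.8 in waxy seed, against 13.1, 4.98 and 9.10 in high-amylose seed. Its scaled log2 difference, waxy minus high-amylose, was 0.37, and the groups overlapped, with -3.29 and -3.66 in waxy seed and -3.81, -4.44 and -3.29 in high-amylose seed.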

How the results depend on the processing

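The number of members followed the arrays in the rule. It was 341 with all arrays, 1054 and 1306 without waxy replicates 1 and 2, 1915, 423 and 540 without high-amylose replicates 1, 2 and 3, and 850 with high-amylose replicates 2 and 3 left out. A gap of at least 1 on the log2 scale left 57, and 5 other choices of flag, spots or probe gave 284 to 447. Members in runs numbered 13, then 5 with that gap, 35 without the 2 dimmer arrays and 15 to 198 with 1 array left out. On chromosomes 11 and 12 there were 56, then 12, 132 and 66 to 245, and their share stayed between 12.8% and 21.1% of the loci in these settings. The members' median difference was 0.96, 0.82 to 1.06 with 1 array left out and 0.20 under normexp with quantile scaling, whose added offset of 50 exceeds most members' signals and shrinks differences of dim loci by construction. Limma called 8 loci over all arrays, 3 with quantile scaling and with the deposited log2 values, 0 under normexp and 0 with a term for the 2 dimmer arrays (645 and 1162 at an unadjusted p under 0.05), 21 among loci detected on all 5 arrays, and 3 to 179 with 1 array left out (72 and 179 without waxy replicates 1 and 2, 9, 5 and 3 without high-amylose replicates 1, 2 and 3). Scan date as a random block gave 6. For 16 named members, 144 values were recomputed, of which 119 moved by less than the spread between replicates and 2 changed sign: LOC_Os01g55710, at -0.31, was at 0.16 without waxy replicate 2 (-0.78 to 0.16 with 1 array left out), and LOC_Os01g01200, at -0.22, was at 0.24 with high-amylose replicates 2 and 3 left out. The cause of the other changes was not tested. No paired analysis was run, since the 2 waxy and 3 high-amylose arrays are of different accessions and the labels pair none of them.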

Other observations

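The member nearest to each listed marker gene lay 1 to 342 array loci away. The distance was 1 at GluA-1, 2 at DFR, 6 at AGPL2 and 9 at SSIIIa. The 2 closest cases are described here, and no share over all loci was worked out, so nothing is read from such distances. LOC_Os01g55700 directly follows GluA-1 (LOC_Os01g55690), a glutelin storage protein gene that was detected on all 5 arrays at scaled log2 signals of 9.26 and 9.05 in waxy seed and 9.67, 9.12 and 9.25 in high-amylose seed. LOC_Os01g55700 had processed signals of 62.7 and 26.3 in waxy seed, against 7.38, 10.3 and 8.26 in high-amylose seed. The groups did not overlap by this probe. Its other probe was detected on no array, and there the groups overlapped. That probe stood at -4.08 and -3.74 in waxy seed and -4.24, -4.34 and -3.67 in high-amylose seed. LOC_Os01g44290 lies 2 array loci after DFR (LOC_Os01g44260), an enzyme gene of pericarp pigments that was detected on all 3 high-amylose arrays and neither waxy array. DFR stood at -3.77 and -4.26 in waxy seed and 0.40, -0.33 and 1.27 in high-amylose seed. LOC_Os01g44290 was at -3.24 and -2.77 in waxy seed and -3.50, -2.99 and -2.58 in high-amylose seed, so its groups overlapped. Its other probe was detected on waxy replicate 1 and high-amylose replicate 1, with a difference of -0.34.

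Within 100 array loci of Waxy, 143 loci were detected on both waxy arrays and 2 were members, a share of 1.40%, near the 1.28% over all loci detected on both waxy arrays. LOC_Os06g04840 lies 57 array loci and LOC_Os06g04910 64 array loci beyond it. LOC_Os06g04910 had signals of 35.5 and 24.9 in waxy seed, against 10.3, 3.56 and 4.48 in high-amylose seed, and was at least 1.19-fold higher.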
